A study of Mus musculus with 24 samples.

Results

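The transcripts described here are those of 7 genes of trans-synaptic adhesion: the neurexins Nrxn2 and Nrxn3, the neuroligins Nlgn1, Nlgn2 and Nlgn3, and the leucine-rich repeat genes Lrrtm1 and Lrrtm2. They were taken by name from a table of 26667 genes, and all 7 passed the filter on low counts that left 18286 genes. RNA sequencing was done on the dentate gyrus, the granule cell region of the hippocampus where neurons are added in adult life. The libraries were 5 from WT mice (C57BL6/J) without treatment, 5 from untreated APP/PS1 mice, 4 from APP/PS1 mice given BCI-838, 5 from APP/PS1 mice with exercise and 5 from APP/PS1 mice with both. BCI-838, a pro-drug whose active form blocks mGluR2 and mGluR3, was dosed orally each day at 5 mg/kg, over 1 month. Exercise was free access to a running wheel for 1 month. All treated mice carried the APP/PS1 transgenes, so neither treatment was measured in WT mice. The series design gives 5 mice a group and names a vehicle for undrugged mice. The labels give neither age nor sex, nor the promoter of the transgenes.

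Neurexins are receptors of the presynaptic membrane, and neuroligins and LRRTM proteins are their partners across the cleft. Each neurexin gene makes long and short forms from separate promoters and many splice forms, and the splice form sets which partner binds. In the hippocampus neuroligin-1 is found mainly at excitatory synapses, neuroligin-2 mainly at inhibitory synapses, and neuroligin-3 at both kinds. LRRTM1 and LRRTM2 are postsynaptic proteins of excitatory synapses that compete with neuroligins for neurexins. The deposited table sums reads per gene, so long, short and spliced forms are not separated here.

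The genes differ widely in size and in the sequence before their starts. In GENCODE coordinates on GRCm38, which is the same assembly as mm10, Nrxn3 lies on chromosome 12 from 88722876 to 90334935 on the plus strand and spans 1612 kb. Nlgn1 lies on chromosome 3 from 25426215 to 26332460 on the minus strand and spans 906 kb. The others are shorter: Nrxn2 spans 125 kb (chromosome 19, 6418731 to 6544169, plus strand) and Nlgn3 26.8 kb (chromosome X, 101299168 to 101325963, plus strand). Lrrtm1 spans 15.1 kb (chromosome 6, 77242689 to 77257791, plus strand) and Nlgn2 14.7 kb (chromosome 11, 69823122 to 69837784, minus strand), and Lrrtm2 is the shortest at 6.02 kb. Lrrtm1 sits inside Ctnna2 on the opposite strand and shares no exonic base with it. Lrrtm2 sits inside Ctnna1, also on the opposite strand, and 95 of its exonic bases (1.58%) are shared. Nrxn2 shares 682 exonic bases (4.94%) with Slc22a12 on the opposite strand, Nlgn1 shares 1229 (9.16%) with the antisense gene A830092H15Rik, and Nlgn3 shares 3823 (41.2%) with Gm21986 on the same strand. The labels do not say whether counting used strand, and strand could not separate Nlgn3 from Gm21986. Reads from these shared bases therefore cannot be assigned with certainty. Neither Gm21986 nor A830092H15Rik was among the genes counted, while Slc22a12 and Ctnna1 were.

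RefSeq windows of 250 bases upstream of an annotated start (GRCm38.p6) were found for 4 of the 7 genes: Lrrtm1, Nlgn1, Nlgn2 and Nrxn3. The windows of Nlgn2, Nrxn3 and Lrrtm1 are printed because Nlgn2 had the smallest spread over libraries, Nrxn3 had a far larger spread and starts far apart, and Lrrtm1 had the smallest p among the 7 in any comparison. The Nlgn2 window (chr11:69837785-69838034, minus strand) holds 67.6% G and C. Capitals mark the GC box GGGCGG, which occurs 3 times when both strands are searched and was found in 32.7% of 32851 such windows.
Nlgn2: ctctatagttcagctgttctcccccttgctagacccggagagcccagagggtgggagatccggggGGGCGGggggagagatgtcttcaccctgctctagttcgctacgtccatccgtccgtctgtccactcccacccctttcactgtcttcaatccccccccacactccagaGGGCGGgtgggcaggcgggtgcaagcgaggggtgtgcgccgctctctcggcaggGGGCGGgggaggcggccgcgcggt
For Nrxn3, the window of an intermediate start (chr12:88953140-88953389, plus strand) holds 46.8% G and C, and that of the most downstream start (chr12:89812233-89812482, plus strand) holds 60.0%. The Lrrtm1 window (chr6:77242227-77242476, plus strand) holds 42.0%, against a median of 52.4% over all windows.
Nrxn3, intermediate start: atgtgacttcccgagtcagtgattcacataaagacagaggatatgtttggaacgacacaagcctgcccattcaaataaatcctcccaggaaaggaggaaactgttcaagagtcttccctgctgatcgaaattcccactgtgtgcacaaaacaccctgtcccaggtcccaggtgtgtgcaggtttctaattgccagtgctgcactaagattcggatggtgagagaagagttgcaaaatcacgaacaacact
Nrxn3, most downstream start: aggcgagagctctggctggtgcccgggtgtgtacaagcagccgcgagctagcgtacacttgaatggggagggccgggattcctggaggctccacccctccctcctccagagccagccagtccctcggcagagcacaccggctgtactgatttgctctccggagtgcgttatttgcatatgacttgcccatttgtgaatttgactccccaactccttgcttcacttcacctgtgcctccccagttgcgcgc
Lrrtm1: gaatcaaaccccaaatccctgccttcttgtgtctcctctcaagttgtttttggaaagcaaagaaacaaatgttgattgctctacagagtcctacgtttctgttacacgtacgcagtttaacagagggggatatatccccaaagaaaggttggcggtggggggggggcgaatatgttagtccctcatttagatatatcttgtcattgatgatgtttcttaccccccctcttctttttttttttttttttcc
None of these 3 windows holds the GC box, and none of the 4 printed windows holds the CRE TGACGTCA (in 1.55% of all windows), the TATA box TATAAA (12.4%) or the E-box CACGTG (6.02%) on either strand. These are matches of letters and were not tested as sites.

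Total counts ranged from 48656360 to 64632882 per library, and levels are given on the CPM scale, each count set against its library's TMM-adjusted total. App was at 1452 to 2073 CPM in WT and at 2467 to 4054 CPM in APP/PS1 libraries, and Prnp, the prion protein gene, at 755 to 985 against 1712 to 2388 CPM, so every library matched its genotype label. Prox1, a defining granule cell gene, was present in all libraries at 14.3 to 175 CPM, with the lowest value in WT replicate 3. The choroid plexus gene Ttr exceeded 100 CPM in 4 libraries, replicates 2, 4 and 5 of the APP/PS1 controls (425, 1615 and 1269 CPM) and replicate 5 of the combined group (297 CPM). For the larger shifts, values without these 4 libraries, from a fit with 2 APP/PS1 controls, are also given. In whole tissue, fewer cells of a type and less RNA per cell cannot be told apart.

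Nlgn2 was the most abundant of the 7 transcripts per length. Over the 24 libraries it averaged 52.5 CPM per kb of annotated exon, ahead of Lrrtm1 at 26.2, Nrxn2 at 24.2, Nrxn3 at 17.1, Lrrtm2 at 13.4, Nlgn3 at 12.7 and Nlgn1 at 4.57. Not scaled for length, Nrxn2 (334 ± 23.6 CPM; SD, n = 24) and Nlgn2 (304 ± 20.3 CPM; SD, n = 24) had the highest levels. These genes also had the lowest coefficients of variation over libraries, 7.07% for Nrxn2 and 6.67% for Nlgn2. Nlgn3 followed at 13.1%, Nlgn1 at 18.2%, Lrrtm1 at 20.7%, Nrxn3 at 22.3% and Lrrtm2 at 22.7%. Within groups the SD of log2 CPM was 0.09 for both Nrxn2 and Nlgn2 and between 0.18 and 0.29 for the other 5 genes, where the median of all genes tested was 0.24.

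**Figure D1:**
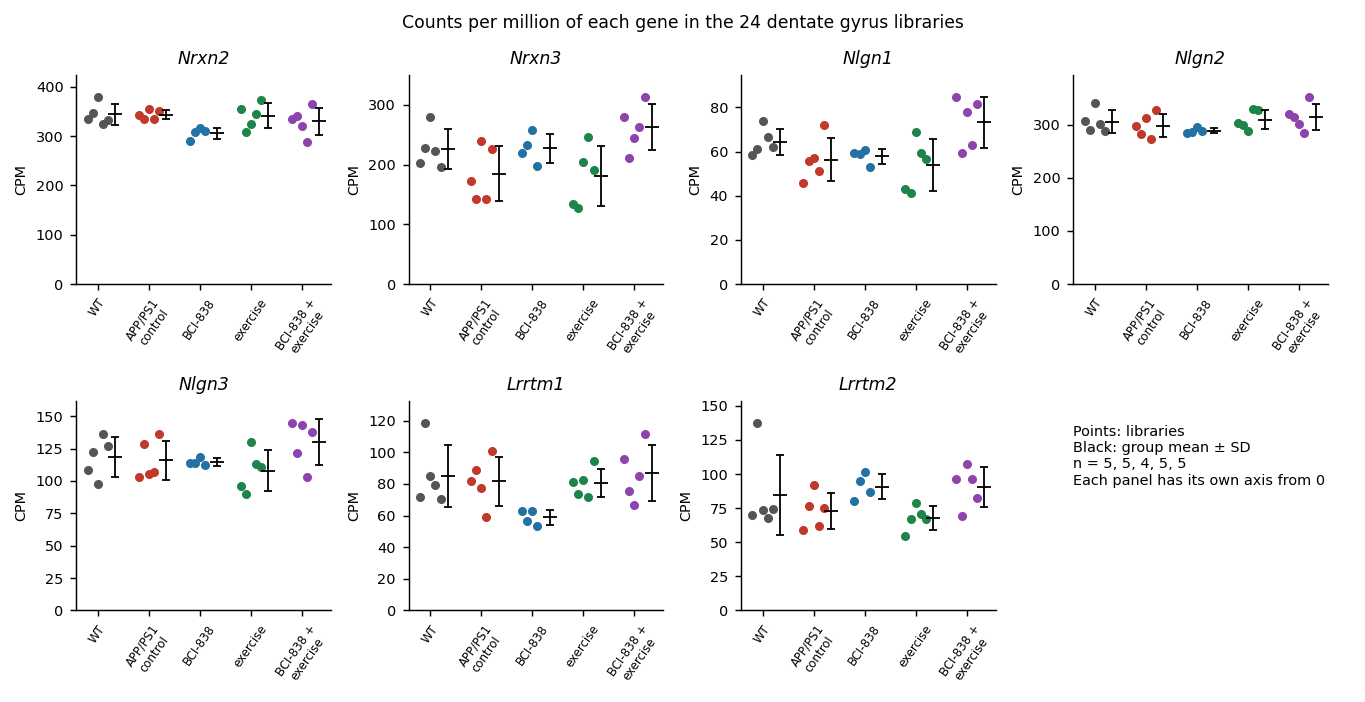
Each panel shows 1 gene, with CPM on a linear axis from 0, a point for each library in its group and the group mean ± SD in black (n = 5, 5, 4, 5 and 5). Nrxn2 and Nlgn2 lie in narrow bands, Lrrtm1 is at 53.4 to 62.9 CPM in the BCI-838 group against 66.9 CPM or more in the combined group, and the Lrrtm2 value of 137 CPM in WT stands apart.

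Nrxn2, a presynaptic receptor gene, was lower in every BCI-838 library than in any untreated APP/PS1 library. The 5 APP/PS1 controls were at 344, 335, 356, 334 and 351 CPM and the 4 BCI-838 libraries at 290, 308, 316 and 310 CPM. The fitted log2 fold change was -0.17 (SE 0.07, 95% interval -0.31 to -0.02) and it did not pass the test (adjusted p = 0.397). Of all genes tested, 2.20% likewise did not overlap in this comparison and were lower with the drug. WT libraries were at 335, 347, 379, 324 and 334 CPM, and their mean of 344 ± 21.4 CPM (SD, n = 5) was the same to 3 digits as that of the APP/PS1 controls, 344 ± 9.55 CPM (SD, n = 5). The exercise group had a mean of 342 ± 25.2 CPM (SD, n = 5) and the combined group 330 ± 28.2 CPM (SD, n = 5). Both overlapped the other groups.

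Nrxn3, the other neurexin gene described, had its highest group mean in mice with both treatments. The combined group was at 280, 210, 244, 263 and 313 CPM, a mean of 262 ± 38.5 CPM (SD, n = 5). The exercise group was at 135, 127, 205, 246 and 191 CPM (180 ± 49.7; SD, n = 5), and the APP/PS1 controls at 172, 143, 240, 143 and 225 CPM (185 ± 45.7; SD, n = 5). Replicates 1 and 2 of the exercise group and 2 and 4 of the controls were the lowest of all libraries, and the combined group overlapped both groups. BCI-838 libraries were at 220, 233, 257 and 198 CPM and WT libraries at 203, 228, 280, 223 and 196 CPM, so these groups had near-equal means of 227 and 226 CPM. From low to high the group means ran exercise, APP/PS1 control, WT, BCI-838 and combined, and no neighbours in that order were free of overlap.

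Nlgn1, the excitatory neuroligin gene, followed a similar order and was also highest in the combined group. The combined libraries were at 84.7, 59.1, 78.0, 63.0 and 81.7 CPM, with replicates 2 and 4 well below the other 3. Their mean was 73.3 ± 11.5 CPM (SD, n = 5). The exercise libraries were at 43.1, 41.1, 69.0, 59.2 and 56.7 CPM (53.8 ± 11.7; SD, n = 5), again with replicates 1 and 2 lowest. The APP/PS1 controls were at 45.8, 55.5, 57.0, 51.4 and 72.1 CPM, the BCI-838 libraries at 59.4, 58.8, 60.6 and 52.9 CPM, and the WT libraries at 58.6, 61.2, 73.7, 66.5 and 62.3 CPM. Of the 5 controls, 4 were below the lowest WT library.

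Nlgn2, the inhibitory neuroligin gene, stayed between 273 and 352 CPM in all 24 libraries. Its group means ran from 289 ± 4.63 CPM (SD, n = 4) with BCI-838 to 315 ± 24.9 CPM (SD, n = 5) with both treatments, and all neighbouring groups overlapped. Nlgn3, which serves both synapse kinds, ranged from 89.5 to 144 CPM. Its group means ran from 108 ± 15.9 CPM (SD, n = 5) with exercise to 130 ± 17.6 CPM (SD, n = 5) with both treatments, and combined replicate 4, at 103 CPM, lay below the other 4 of its group (122 to 144 CPM).

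Lrrtm1, the more abundant LRRTM gene per length, was lowest in the BCI-838 group. Those 4 libraries were at 62.9, 56.7, 62.7 and 53.4 CPM, a mean of 58.9 ± 4.66 CPM (SD, n = 4). The exercise libraries were at 81.1, 73.6, 82.3, 71.7 and 94.2 CPM and the combined libraries at 96.0, 75.3, 66.9, 84.8 and 111 CPM. Neither group overlapped the BCI-838 group, and 3.18% of all genes were likewise lower with BCI-838 than with exercise. The APP/PS1 controls were at 81.7, 88.6, 77.3, 59.4 and 101 CPM, so that replicate 4 fell within the BCI-838 range, and WT libraries were at 71.4, 118, 84.9, 79.5 and 70.7 CPM.

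Lrrtm2, on the minus strand of chromosome 18 from 35209003 to 35215024, was highest on average in the groups given BCI-838. The BCI-838 group was at 80.0, 94.7, 102 and 86.9 CPM and the combined group at 96.6, 69.2, 108, 96.3 and 82.4 CPM. The exercise libraries were at 54.5, 67.3, 78.6, 70.7 and 67.2 CPM, all below the 4 BCI-838 libraries (2.49% of all genes were so), and the APP/PS1 controls at 59.3, 76.4, 92.1, 62.0 and 74.8 CPM. In WT, 4 libraries were at 68.0 to 74.4 CPM and replicate 2 was at 137 CPM.

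The first comparison, APP/PS1 controls against WT, asks what the transgenes change without treatment. None of the 7 genes passed the edgeR test at an adjusted p under 0.05, where 0.0109% of all genes did. None was past an unadjusted p of 0.05 either (2.76% of all genes), and DESeq2 and voom called 0. None of the 7 log2 fold changes was above 0, against 47.4% of all genes tested, with a median of -0.06 where that of all genes was -0.01. The values farthest from 0 were those of Nrxn3 at -0.29 (SE 0.17, 95% interval -0.65 to 0.06), Lrrtm2 at -0.22 (SE 0.17) and Nlgn1 at -0.19 (SE 0.13). Nrxn2 was at 0.00 (SE 0.07), Nlgn2 and Nlgn3 at -0.04 and -0.03, and Lrrtm1 at -0.06. Each adjusted p was 1.00. The value of Lrrtm2 rests on 1 library: without WT replicate 2 it was 0.032 (SE 0.13). Choroid plexus markers were higher in the controls in 10 of 10 cases, with summed levels of 28.1 to 1776 CPM against 27.4 to 53.8 CPM in WT. Without the 4 libraries high in Ttr, Nrxn3 was at -0.13 (SE 0.21), Nlgn1 at -0.33 (SE 0.17) and Nlgn3 at -0.18 (SE 0.14), so Nrxn3 lay nearer to 0 and the neuroligins farther from it.

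**Figure D2:**
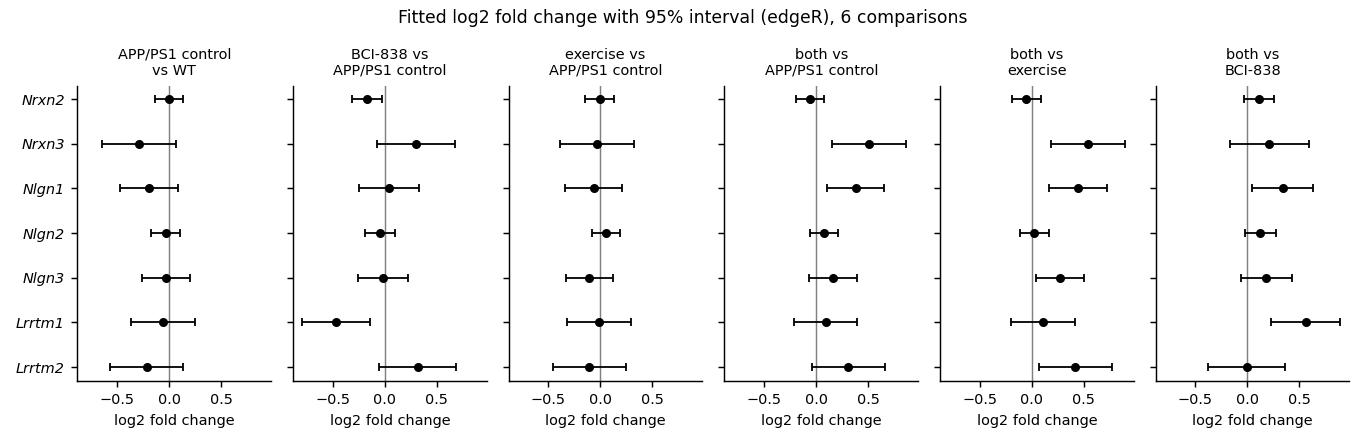
Points are fitted log2 fold changes with 95% intervals from edgeR for the 7 genes in 6 comparisons, on a shared linear axis with a grey line at 0. No gene passed an adjusted p under 0.05, and the values farthest from 0 are those of Lrrtm1 for both treatments against BCI-838 (0.56) and Nrxn3 for both against exercise (0.54).

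BCI-838 alone was set against APP/PS1 controls to ask what the drug does without running. edgeR called 0 of the 7 genes, and 0% of all genes, as did DESeq2 and voom for the 7. At an unadjusted p under 0.05, 2 of the 7 were lower (5.96% of all genes) and none was higher (4.23%). Lrrtm1 had a log2 fold change of -0.47 (SE 0.16, 95% interval -0.80 to -0.14, adjusted p = 0.310), from 81.6 ± 15.3 CPM (SD, n = 5), and Nrxn2 was the other. Nrxn3 at 0.30 (SE 0.18) and Lrrtm2 at 0.32 (SE 0.18) lay on the other side of 0, and the neuroligins were near it, with Nlgn1 at 0.04, Nlgn2 at -0.05 and Nlgn3 at -0.02. The median of the 7 was -0.02, against 0.00 for all genes. Choroid plexus markers were lower with the drug in 9 of 10 cases (summed 29.3 to 37.9 CPM), and CA field markers in 6 of 7 (296 to 470 CPM against 220 to 666 CPM). Without the libraries high in Ttr, Nrxn3 was at 0.14 (SE 0.22), Nlgn1 at 0.17 (SE 0.18) and Nlgn3 at 0.13 (SE 0.15), while Lrrtm1 was at -0.43 (SE 0.17). Granule neuron markers were lower with the drug in 5 of 8 cases (median -0.37, 3 past an unadjusted p of 0.05), with sums of 507 to 766 CPM against 258 to 1156 CPM. Interneuron markers were higher in 6 of 8 (median 0.44, 2 past that threshold), with sums of 1087 to 1318 CPM against 595 to 1164 CPM. Astrocyte markers were higher in 7 of 8 (median 0.18, 1 past that threshold). Their sums were 1861 to 2140 CPM against 1551 to 1781 CPM. Dorsal midbrain and thalamus markers were higher in 5 of 9 (median 0.48) and lower in 4, 1 of these past that threshold. Their sums were 103 to 264 CPM against 50.7 to 476 CPM. With granule neuron less CA field markers as a covariate, Lrrtm1 was at -0.48 (SE 0.16) and Nrxn2 at -0.18 (SE 0.06). With the midbrain list as the covariate, Lrrtm1 was at -0.35 (SE 0.13) and Nrxn2 at -0.15 (SE 0.07). The part of the interneuron and astrocyte lists was not tested. That of the granule neuron, CA field and midbrain lists was not tested further.

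Exercise alone against APP/PS1 controls asks what running does without the drug. No gene of the 7 passed in edgeR, DESeq2 or voom, where edgeR called 0.00547% of all genes, and none was past an unadjusted p of 0.05 (5.44% of all genes). The 7 log2 fold changes lay between -0.11 for Lrrtm2 (SE 0.17) and 0.05 for Nlgn2 (SE 0.07). The interval for Nlgn2, -0.09 to 0.19, was the narrowest but for that of Nrxn2, -0.14 to 0.13, while that of Nrxn3 ran from -0.39 to 0.32. The median was -0.03, against 0.01 for all genes. Without the libraries high in Ttr, Nrxn3 was at -0.19 (SE 0.21), Nlgn1 at 0.07 (SE 0.17) and Nlgn3 at 0.05 (SE 0.14).

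Both treatments together against APP/PS1 controls gave no call among the 7 genes in edgeR (0% of all genes), DESeq2 or voom. Nrxn3 and Nlgn1 were past an unadjusted p of 0.05 and higher (4.87% of all genes were). Nrxn3 was at 0.51 (SE 0.17, 95% interval 0.15 to 0.86, adjusted p = 0.333) and above the highest control in 4 of 5 combined libraries. Nlgn1 was at 0.38 (SE 0.13, adjusted p = 0.337) and above it in 3 of 5. Lrrtm2 was at 0.31 (SE 0.17), Nlgn3 at 0.16 (SE 0.11), Lrrtm1 at 0.09, Nlgn2 at 0.08 and Nrxn2 at -0.06 (SE 0.07). In all, 6 of the 7 were above 0, as were 48.6% of all genes, and the median of the 7 was 0.16, against -0.01 for all genes. Without the 4 libraries high in Ttr, Nrxn3 was at 0.28 (SE 0.22), Nlgn1 at 0.47 (SE 0.18) and Nlgn3 at 0.30 (SE 0.15). Choroid plexus markers were lower with both treatments in 10 of 10 cases and dorsal midbrain and thalamus markers in 9 of 9. Of these, 9 and 5 were past an unadjusted p of 0.05. CA field markers were higher in 7 of 7 (0 past that threshold), interneuron markers in 8 of 8 (1 past) and microglia markers in 7 of 8 (6 past). The part of the interneuron and microglia lists was not tested.

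Both treatments against exercise alone, the effect of the drug in running mice, gave higher values for 6 of the 7 genes (46.6% of all genes were higher), with Nrxn2 at -0.05 (SE 0.07). edgeR called 0 of 7, and 0% of all genes. At an unadjusted p under 0.05, 4 of the 7 were higher, where 8.73% of all genes were. Nrxn3 was at 0.54 (SE 0.17, 95% interval 0.18 to 0.90, adjusted p = 0.148), a 1.45-fold difference, and Nlgn1 at 0.45 (SE 0.13, 95% interval 0.17 to 0.72, adjusted p = 0.140), a 1.36-fold difference. Lrrtm2 was at 0.42 (SE 0.17, adjusted p = 0.211), with 4 of 5 combined libraries above the highest exercise library, and Nlgn3 at 0.27 (SE 0.11, adjusted p = 0.217), with 3 of 5 above. Lrrtm1 was at 0.11 (SE 0.15) and Nlgn2 at 0.02, with an interval of -0.11 to 0.16. The median was 0.27, against -0.02 for all genes. With the 4 libraries high in Ttr left out, Nlgn1 was at 0.40 (SE 0.14), Lrrtm2 at 0.45 (SE 0.19) and Nlgn3 at 0.25 (SE 0.11). This comparison shares the combined group with the one before, so the pair are not separate observations.

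The test used decided the call for Nlgn1 and Nrxn3 here. DESeq2 called Nlgn1 at 0.46 (adjusted p = 0.0477) and not Nrxn3 (adjusted p = 0.0575). Limma voom with quality weights called both, Nlgn1 at 0.53 (adjusted p = 0.0272) and Nrxn3 at 0.67 (adjusted p = 0.0282). These tools called more genes of every kind, 374 for DESeq2 and 1012 for voom of 18286. Within edgeR, Nlgn1 passed when exercise replicate 3, the exercise library highest in Nlgn1, was left out (0.55, adjusted p = 0.0413), and that fit called 400 genes in all.

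Both treatments against BCI-838 alone, the effect of running in drug-treated mice, gave Lrrtm1 the largest value of the 7. Its log2 fold change was 0.56 (SE 0.16, 95% interval 0.23 to 0.89, adjusted p = 0.185), a 1.47-fold difference from 58.9 to 86.9 CPM, and all 5 combined libraries exceeded the highest BCI-838 library. Of all genes tested, 4.30% were likewise higher without overlap. edgeR called 0 of 7, and 0% of all genes, while DESeq2 called Lrrtm1 (0.57, adjusted p = 0.0440), as did voom (0.54, adjusted p = 0.0335). Nlgn1 was at 0.34 (SE 0.14, adjusted p = 0.277) and was the other gene past an unadjusted p of 0.05 (7.48% of all genes were, and higher). Nrxn3 was at 0.21, Nlgn3 at 0.18, Nlgn2 at 0.12, Nrxn2 at 0.11 and Lrrtm2 at -0.01 (SE 0.18), so that 6 of the 7 were above 0, as were 48.7% of all genes. With the 4 libraries high in Ttr left out, Lrrtm1 was at 0.45 (SE 0.14) and Nlgn1 at 0.30 (SE 0.14).

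The interaction of drug and exercise over the 4 APP/PS1 groups was tested directly. Lrrtm1 had the largest value of the 7, 0.58 (SE 0.22, 95% interval 0.13 to 1.03, adjusted p = 0.434), and Nlgn1 was at 0.41 (SE 0.19, adjusted p = 0.519). Without the 4 libraries high in Ttr, Lrrtm1 was at 0.44 (SE 0.22), Nlgn1 at 0.23 (SE 0.22) and Nlgn3 at 0.12 (SE 0.19). In the fit of all libraries the other 5 lay between 0.07 for Nlgn2 and 0.29 for Nlgn3. No gene of the 7 or of all 18286 was called by edgeR (0%), 2 of the 7 were past an unadjusted p of 0.05 and higher (5.37% of all genes), and DESeq2 and voom called 0 of the 7. Over all 5 groups at once, the smallest adjusted p among the 7 was 0.286, for Lrrtm1 and Nlgn1, and edgeR called 0.0273% of all genes. Nrxn3 followed at 0.301, and voom put all 3 under 0.05 (0.0451, 0.0449 and 0.0288).

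**Figure D3:**
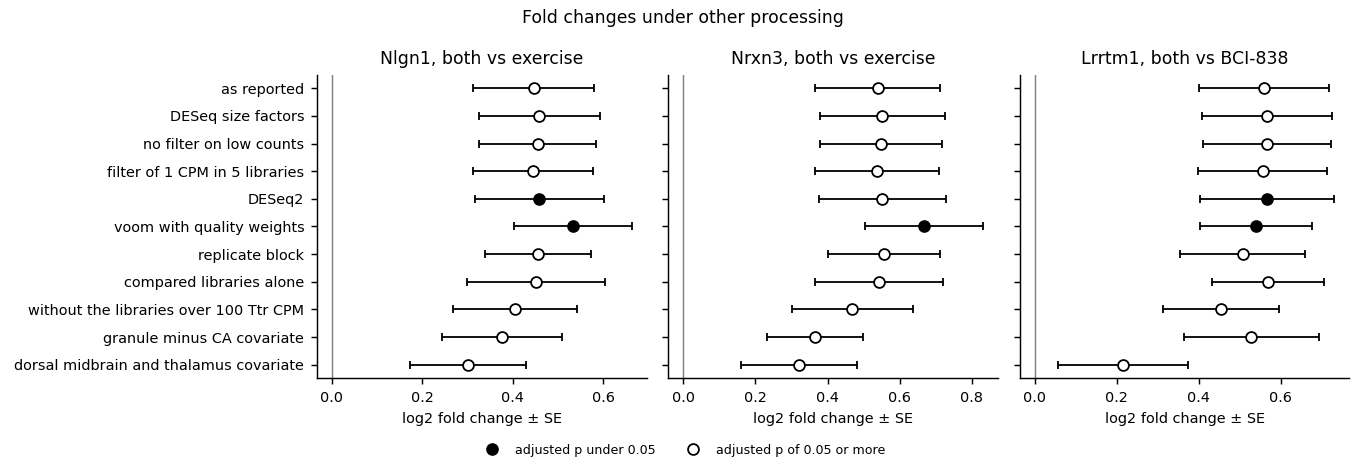
Log2 fold change ± SE of Nlgn1 and Nrxn3 (both treatments against exercise) and of Lrrtm1 (both against BCI-838) under the reported fit and 10 other settings, on linear axes with a grey line at 0. Filled points have an adjusted p under 0.05, and the lowest value in each panel is that with the dorsal midbrain and thalamus list as a covariate (0.30, 0.32 and 0.22).

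Markers of regions next to the dentate gyrus differed between these groups as well. The 9 dorsal midbrain and thalamus markers were all lower in the combined group than with exercise (3 past an unadjusted p of 0.05) and than with BCI-838 (3 likewise). They summed to 23.3 to 149 CPM in the combined group (median 34.3), 32.8 to 255 CPM with exercise (median 105) and 103 to 264 CPM with BCI-838 (median 202). A count of 0 in at least 1 library was seen for 4 of the 9 in the combined group, 3 with exercise and none with BCI-838, and Pax7 was at 0 in combined replicates 4 and 5. The 7 CA field markers, of pyramidal neurons, were all higher in the combined group than in either, and summed to 307 to 1252 CPM against 317 to 740 CPM with exercise and 296 to 470 CPM with BCI-838. Neither list had a called gene in edgeR.

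Levels of several of the 7 genes were related to these lists over the 24 libraries. Lrrtm1 had a Pearson r of -0.66 with the mean log2 CPM of the dorsal midbrain and thalamus list (permutation p = 0.00054, adjusted p = 0.0063 over 70 relations, Spearman rho -0.73, and -0.75 without the 2 farthest libraries). It was also at -0.64 with the astrocyte list (adjusted permutation p = 0.0069, rho -0.68, -0.52 without the 2 farthest and -0.45 within groups). With the CA field list Lrrtm1 was at 0.59 (adjusted permutation p = 0.0148, rho 0.59, and 0.80 without the 2 farthest). Nlgn2 had an r of 0.76 with the CA field list (permutation p = 4e-05, adjusted p = 0.0014, rho 0.61, and 0.63 without the 2 farthest), and within groups it was 0.71. With the midbrain list Nlgn2 was at -0.59 (adjusted permutation p = 0.0173, rho -0.49, -0.45 without the 2 farthest and -0.50 within groups). Nlgn1 was at 0.60 with the CA field list and -0.59 with the midbrain list (adjusted permutation p = 0.0148 for each, rho 0.62 and -0.59, and 0.54 and -0.51 without the 2 farthest). Lrrtm2 was at -0.16 and -0.18 (adjusted permutation p = 0.649 for each). Nrxn3 was at 0.52 with the CA field list and -0.54 with the midbrain list (adjusted permutation p = 0.0398 and 0.0353, rho 0.45 and -0.55, and 0.52 and -0.56 without the 2 farthest). Nrxn3 was also at -0.56 with the granule neuron list (adjusted permutation p = 0.0227, rho -0.60, and -0.55 without the 2 farthest) and 0.52 with the interneuron list (adjusted permutation p = 0.0398, rho 0.47, and 0.55 without the 2 farthest). Nlgn3 was at -0.71 with the oligodendrocyte list (adjusted permutation p = 0.0014, rho -0.80, -0.70 without the 2 farthest and -0.67 within groups). Oligodendrocyte markers were lower with both treatments than with exercise in 7 of 7 cases, with sums of 2100 to 11673 CPM against 5139 to 8164 CPM, so the ranges overlapped. Endothelial markers were lower in 8 of 8 (5 past an unadjusted p of 0.05), with sums of 173 to 228 CPM against 224 to 282 CPM. The part of these last 2 lists in the differences was not tested. With the midbrain list as a covariate the difference in Lrrtm1 between both treatments and BCI-838 was 0.22, that in Nlgn1 was 0.09, and that in Nrxn3 was -0.15 in place of 0.21. Against exercise the same fit gave 0.30 for Nlgn1 and 0.32 for Nrxn3. Against APP/PS1 controls it gave 0.22 for Nlgn1 and 0.29 for Nrxn3, and for the interaction 0.25 for Lrrtm1 and 0.17 for Nlgn1. With granule neuron less CA field markers as the covariate, Nrxn3 was at 0.33 and Nlgn1 at 0.30 for both treatments against APP/PS1 controls. Against exercise that fit gave 0.38 for Nlgn1, 0.32 for Nlgn3 and 0.45 for Lrrtm2. Nrxn3 against exercise lay between 0.32 and 0.68 over all 34 other settings. Against BCI-838 it gave 0.53 for Lrrtm1 and 0.29 for Nlgn1. The part of RNA from the CA fields and the midbrain in the differences was not tested further.

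Genes of long genomic span, among them Nrxn3 and Nlgn1, had medians away from 0 in most comparisons, a pattern examined after the results were seen. For both treatments against exercise, the median log2 fold change was -0.11 for 3581 protein-coding genes under 10 kb and 0.18 for 202 genes over 500 kb, a class that holds Nrxn3 and Nlgn1. For both against BCI-838 it was 0.01 in either class. The short gene Lrrtm2, at 0.42 against exercise, lay far above the median of its class, and Nrxn2, at -0.05 with a span of 125 kb, lay below the 0.07 of genes of 50 to 200 kb. A score per library, the mean log2 CPM of 200 long genes less that of 3580 short genes, without these 7, was lowest with exercise (2.00 ± 0.34; SD, n = 5) and 2.10 ± 0.15 in APP/PS1 controls, against 2.24 in WT, 2.30 with BCI-838 and 2.28 with both. Over the 24 libraries the score had an r of 0.74 with Nrxn3 (permutation p = 0.00018, adjusted p = 0.0042, rho 0.58, and 0.54 without the 2 farthest), 0.67 with Lrrtm2 (adjusted permutation p = 0.00574, rho 0.73, and 0.69 without the 2 farthest) and 0.66 with Nlgn1 (the same adjusted p, rho 0.48, and 0.56 without the 2 farthest). With Nlgn3 it was 0.58 (adjusted permutation p = 0.0148, rho 0.45, 0.45 without the 2 farthest and 0.52 within groups). It was 0.00 for Nlgn2 and -0.24 for Nrxn2 (adjusted permutation p = 0.986 and 0.487). Its part in the differences of Nrxn3, Lrrtm2, Nlgn1 and Nlgn3 was not tested.

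**Figure D4:**
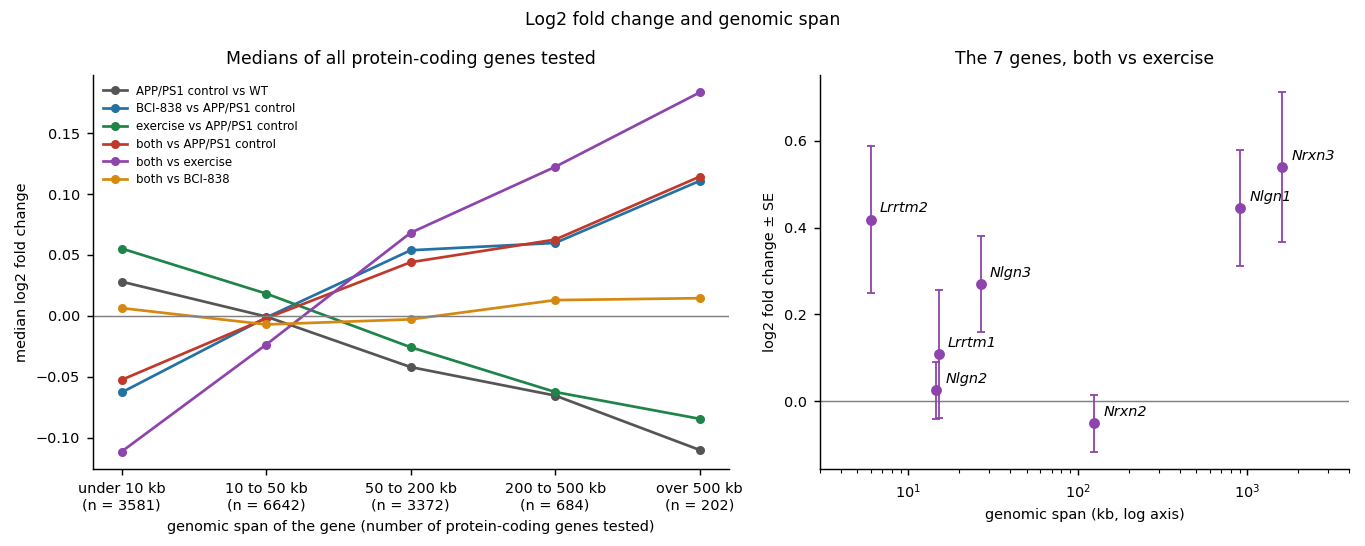
Left, the median log2 fold change of protein-coding genes in 5 classes of genomic span for 6 comparisons; right, the 7 genes with log2 fold change ± SE for both treatments against exercise, by span in kb on a log axis. The medians run from -0.11 to 0.18 for both against exercise and are 0.01 at either end for both against BCI-838, and the short gene Lrrtm2 is at 0.42.

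Some pairs among the 7 genes varied together over the libraries. Nrxn3 and Nlgn1 had the highest Pearson r of 21 pairs, 0.83 over 24 libraries (permutation p = 2e-05, adjusted p = 0.000315, rho 0.79). It was 0.72 without the 2 libraries farthest from the median of Nrxn3, and 0.76 within groups. Nlgn1 and Nlgn3 followed at 0.76 (permutation p = 3e-05, adjusted p = 0.000315, rho 0.69, 0.65 without the 2 farthest and 0.69 within groups). Nrxn2 and Nlgn2, the genes of least spread, were at 0.70 (permutation p = 0.00024, adjusted p = 0.00168, rho 0.70, 0.68 without the 2 farthest and 0.78 within groups). Nrxn2 and Nrxn3 were at 0.06 and Nlgn2 and Nlgn3 at 0.13 (adjusted permutation p = 0.833 and 0.644, rho 0.06 and 0.07, and 0.22 and 0.15 without the 2 farthest). Lrrtm1 and Lrrtm2 were at 0.13 (adjusted permutation p = 0.644, rho 0.02, and -0.11 without the 2 farthest). Within groups Nrxn2 and Nrxn3 were at 0.40, Nlgn2 and Nlgn3 at 0.07, and Lrrtm1 and Lrrtm2 at 0.39. The points share library depth and tissue content.

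**Figure D5:**
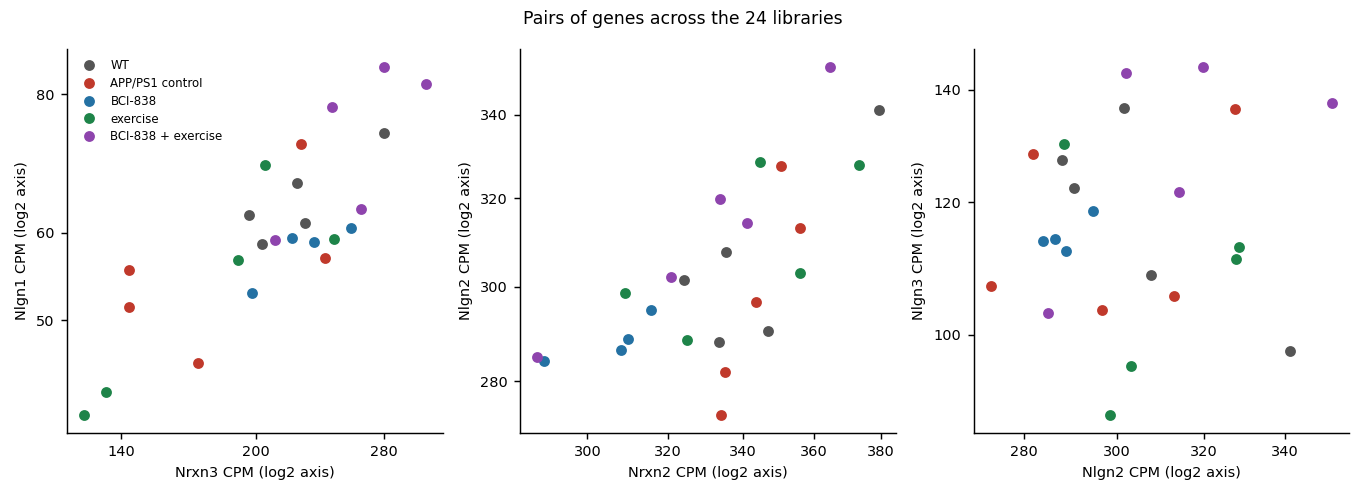
Each point is 1 of the 24 libraries, coloured by group, with CPM on log2 axes for Nlgn1 against Nrxn3 (r = 0.83), Nlgn2 against Nrxn2 (r = 0.70) and Nlgn3 against Nlgn2 (r = 0.13). The first pair forms a band from exercise libraries at the low end to combined libraries at the high end.

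Likeness was searched among the genes tested, leaving out symbols in the form of predicted or clone names. The 3 most like each of the 7 over the 24 libraries were as follows. Nrxn3 was closest to Sel1l, Kifap3 and Usp45 (r = 0.96, 0.95 and 0.93), Nlgn1 to Lemd3, Dock4 and Epha6 (0.94 each), and Nlgn3 to Ncor1, Pcnx and Prrc2b (0.94 each). Nlgn2 was closest to Sms, Pacs1 and Shank1 (0.90, 0.85 and 0.83), of which Shank1 encodes a postsynaptic scaffold. Lrrtm1 was closest to Dlgap3 (0.88), also a postsynaptic scaffold gene, Rasd1 (0.83) and Dbpht2 (0.83). Lrrtm2 was closest to Apbb2 (0.87), Gabrb2, a GABA-A receptor subunit gene (0.87), and Npepps (0.84), and Nrxn2 to Adrbk1, Begain and Btbd2 (0.75, 0.75 and 0.74).

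Scaffold genes whose proteins bind the tails of neurexins and neuroligins mostly had higher values in the combined group, and none was called. Against exercise, 20 of 22 were higher (46.6% of all genes), with a median of 0.18, and 8 were higher at an unadjusted p under 0.05 (8.73% of all genes). Magi2, a synaptic scaffold gene, was at 0.37 (SE 0.10, adjusted p = 0.131), and Dlgap2, which encodes a binding partner of PSD-95, at 0.66 (SE 0.18, adjusted p = 0.131). These 2 genes span 1478 and 752 kb. Of the 202 protein-coding genes over 500 kb, 143 were higher against exercise, 56 of them at that threshold, with a median of 0.18. The part of span and of CA field RNA in the scaffold values was not tested. Against BCI-838, 15 of 22 were higher (48.7% of all genes), with a median of 0.22, and 11 were higher at that threshold (7.48% of all genes). At the same threshold 1 scaffold gene was lower against exercise and 2 against BCI-838, as were 1614 and 1251 of the 18286 genes tested. Dlgap1 was at 0.53 (SE 0.15, from 592 to 853 CPM) and Dlgap2 at 0.69 (SE 0.20), both with an adjusted p of 0.185. Against APP/PS1 controls 19 of 22 were higher with both treatments (48.6% of all genes; median 0.17), with Shank2 at 0.35 (SE 0.12) and Magi1 on the other side at -0.43 (SE 0.13). The single treatments gave 10 of 22 higher with BCI-838 and 7 of 22 with exercise, and the genotype 4 of 22.

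Other adhesion and secreted partners of neurexins and neuroligins, a list of 40 genes, had no call either. With both treatments 25 were higher than in APP/PS1 controls (48.6% of all genes). Against exercise 23 were higher (46.6% of all genes; median 0.07), with 10 higher and 0 lower at an unadjusted p under 0.05, where 8.73% of all genes were higher. Against BCI-838 18 were higher (48.7% of all genes; median -0.02), with 6 higher and 4 lower at that threshold, where 7.48% of all genes were higher. Mdga1 encodes a protein that binds neuroligins and blocks their contact with neurexins. Its log2 fold change was 1.00 (SE 0.27, adjusted p = 0.131) against exercise, from 52.9 to 106 CPM, and 1.20 (SE 0.29, adjusted p = 0.185) against BCI-838, from 46.1 CPM. All 5 combined libraries were above the highest BCI-838 library, as was so for 4.30% of all genes. Cadm3, of the SynCAM family, was at 0.41 (SE 0.10, adjusted p = 0.131) against exercise and at 0.36 against APP/PS1 controls. Ptprs, a presynaptic receptor phosphatase gene, was at 0.29 (SE 0.08) against BCI-838. Of the single treatments, BCI-838 had 23 of 40 higher, led by the latrophilin gene Adgrl3 at 0.52 (SE 0.19, adjusted p = 0.355), and exercise 16 of 40, with the cerebellin gene Cbln4 at -0.70 (SE 0.41). In the genotype comparison 15 of 40 were higher, and Il1rapl1 was at -0.60 (SE 0.26).

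Splicing regulators of these transcripts and the proteases that shed them, 10 and 8 genes, gave no call in any comparison. With both treatments against exercise 6 of 10 splicing genes and 4 of 8 protease genes were higher. Rbfox2 was at 0.25 (SE 0.09), Khdrbs1, which encodes Sam68, at -0.20 (SE 0.08), and Adam10, the main shedding protease of neuroligin-1, at 0.30 (SE 0.10, adjusted p = 0.155). Aph1a, a gamma-secretase subunit gene, was at -0.20 (SE 0.07) in that comparison and at 0.21 (SE 0.07) with exercise against APP/PS1 controls, which share the exercise group. Nova1 and Nova2 lay on opposite sides of 0: with both treatments against BCI-838 Nova2 was at 0.32 (SE 0.11) and Nova1 at -0.61 (SE 0.22), and with BCI-838 against APP/PS1 controls Nova2 was at -0.24 and Nova1 at 0.46. Ptbp1 was at 0.24 (SE 0.10) in the genotype comparison and at -0.27 (SE 0.10) with both treatments against APP/PS1 controls, which share the controls.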

How the data were processed

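Read counts per gene, whole numbers that the authors deposited for 24 mouse libraries, were the only values used. STAR, HTSeq, DESeq and the build mm10 are named per the submitters' processing notes, without versions. The authors' normalised table was not used. Groups came from the labels, and all 24 columns were matched to a sample. The extraction protocol in the labels gives 5 mice a group and an RNA integrity of at least 8.4.

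Genes were kept by filterByExpr of edgeR 4.0.16 (minimum count 10, minimum total 15, R 4.3.3), scaled by TMM and fitted in 1 quasi-likelihood model with a mean per group, so that the 5 groups shared 1 estimate of the spread. Genes with an adjusted p under 0.05 (Benjamini-Hochberg, 18286 genes) were called, and the SE was taken from the log2 fold change and F. Correlations used log2 CPM with a prior count of 2 and 100000 permutations, two-sided. Alternatives were DESeq size factors, 2 other filters (none, or 1 CPM in 5 libraries), DESeq2 1.42.0, voom with quality weights in limma 3.58.1, a replicate block, the compared libraries alone, 2 tissue covariates, leaving out the 4 libraries over 100 Ttr CPM, and leaving out each library. The fit was tested on simulated counts. The replicate numbers did not pair the samples: same-numbered libraries of different groups deviated with a median r of -0.01 (46 pairs, -0.38 to 0.40).

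The 7 genes, the lists and the tests were chosen with earlier results of these data known. From each pathway list the genes with the 2 smallest p in a comparison may be named. Older symbols matched 4 list genes. Some genes that the rules select are not reported here.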

Additional observations from a re-analysis of the deposited data

Results flagged for a closer look

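Lrrtm2 in WT replicate 2 stood apart from its group, at 137 CPM where the other 4 WT libraries were at 68.0 to 74.4 CPM. The gap to the nearest library was 0.907 of the group's whole range, above Dixon's 95% critical value for 5 samples. It was the only 1 of 35 groups of values so marked (7 genes in 5 groups), and chance marks about 1 in 20. The same library was also the highest of its group in Lrrtm1 (118 CPM), and not in Nrxn3 (228 CPM) or Nlgn1 (61.2 CPM).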

How the results depend on the processing

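Of 1666 log2 fold changes of the 7 genes under other settings, 1658 kept their side of the threshold, 6 gained a call and 2 changed sign (Lrrtm2 for the genotype, 0.032 without WT replicate 2 and down to -0.31 without another library; Nrxn3 for both treatments against BCI-838, -0.15 with the midbrain covariate). Of the 1658, 76 changed sign where the value was below its SE in both fits. The number of the 7 called was 0 in each edgeR fit but that without exercise replicate 3, and was 3 by voom over the 5 groups, 1 by DESeq2 and 2 by voom for both treatments against exercise (0 to 1 over single libraries left out), and 1 by each tool for both against BCI-838. The calls were Nlgn1 at 0.46 and 0.53 (0.55 without exercise replicate 3), Nrxn3 at 0.67, and Lrrtm1 at 0.57 and 0.54, with adjusted p over the 5 groups by voom of 0.0288 for Nrxn3, 0.0449 for Nlgn1 and 0.0451 for Lrrtm1. Counts of all genes moved more. The edgeR fit called 5 over the 5 groups, 2 for the genotype, 1 for exercise and 0 elsewhere. DESeq2 called 496 over the 5 groups, 14 for the genotype, 171 for BCI-838, 61 for exercise, 82 for both, 374 for both against exercise, 258 for both against BCI-838 and 77 for the interaction. Voom called 1663, 483 (BCI-838), 0 (exercise), 1012 (both against exercise) and 936 (both against BCI-838). Compared libraries alone gave 9 for BCI-838, 1 for the genotype, 111 for both against BCI-838 and 0 for exercise. The granule minus CA covariate gave 17 over the 5 groups, 1 for both against exercise and 0 for exercise. The fit without the high-Ttr libraries gave 0 for exercise. The replicate block gave 1 for both and 0 for exercise and changed no other call. Leaving out single libraries gave 3 to 65 over the 5 groups (most without combined replicate 2), 2 to 3 for the genotype, 0 to 12 for BCI-838 and 0 to 27 for exercise (most of these 3 without APP/PS1 control replicate 1), 0 to 17 for both (combined replicate 2), 0 to 400 for both against exercise (exercise replicate 3), 0 to 2 for both against BCI-838 and 0 for the interaction. The causes were not tested. Each of the 7 genes had at least 41.1 CPM in every library.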

Other observations

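The level of Nlgn2 relative to Nlgn1, per kb of exon, was examined after the results were seen. The ratio was 11.0 ± 0.66 in WT (SD, n = 5), 12.5 ± 1.65 in APP/PS1 controls (SD, n = 5), 11.6 ± 0.72 with BCI-838 (SD, n = 4), 13.8 ± 2.90 with exercise (SD, n = 5) and 10.1 ± 1.43 with both (SD, n = 5). With both treatments it was 0.809 times that of APP/PS1 controls (exact permutation p = 0.0317, two-sided) and 0.739 times that of the exercise group (exact permutation p = 0.0397). Adjusted over 6 comparisons each exact p was 0.119, so neither passed.

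The BCI-838 group had the smallest SD of log2 CPM for 6 of the 7 genes, and for 51.0% of all genes tested (9323 of 18286). Its median SD was 0.14, against 0.22 to 0.24 in the other groups, which have 5 libraries each. Lrrtm1 was among the 6, while Nrxn2 had its smallest SD in the APP/PS1 controls (0.040, against 0.054 with BCI-838).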
